A study of Mus musculus with 82 samples.

Results

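Integrins are cell surface receptors built from an α and a β subunit that connect the extracellular matrix with the actin cytoskeleton. In arterial smooth muscle the α1β1 and α2β1 pairs bind collagen, α3β1 and α7β1 bind laminin, α5β1 is the classical fibronectin receptor, α4β1 binds fibronectin and VCAM-1, and αv pairs with β3 or β5 to bind vitronectin, osteopontin and other ligands with an RGD motif. Contractile and matrix-synthesizing smooth muscle cells are known to carry different sets of these subunits. Integrin subunits are described here by their RNA in primary mouse aortic vascular smooth muscle cells (aVSMC). The set was fixed by name and holds 10 of the 55401 genes in the count tables: the α subunit genes Itga1, Itga2, Itga3, Itga4, Itga5, Itga7 and Itgav, and the β subunit genes Itgb1, Itgb3 and Itgb5. Of these, 9 were counted and passed the low-count filter at both times, and Itgb1 was listed at 0 in all 82 libraries.

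The cells came from aortas of C57BL/6 mice and had grown in a medium that itself contained serum and EGF. All groups, controls included, then went through 24 h in unsupplemented medium before the stimuli were added. The stimuli were EGF (10 µg/L), the ligand of the EGF receptor, angiotensin II (AngII, 10 nM), which acts on the AT1 receptor, and U46619 (1 µM), a stable thromboxane A2 analog that acts on the TP receptor. After 24 h there were 7 groups with n = 6 libraries, 1 from each of 6 mice: control, the single stimuli, EGF+AngII, EGF+U46619 and the triple incubation EGF+AngII+U46619. After 48 h there were 6 groups, sequenced as an EGF/U46619 batch and an EGF/AngII batch with 5 culture sets each, where a culture set is the group of cultures sharing a batch and a replicate number. Both batches had their own control and EGF cultures, so that these groups held n = 10 libraries and AngII, U46619, EGF+AngII and EGF+U46619 held n = 5. For these 10 culture sets the labels number only 5 mice, although the methods assign a different mouse to each replicate.

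Levels are given in FPM, counts per 1000000 after TMM scaling within a time point, and differences as log2-fold changes with the standard error (SE) from edgeR. A gene was called where edgeR's quasi-likelihood test and DESeq2 both gave an FDR (the Benjamini-Hochberg adjusted p over all genes tested) under 0.05 and a group mean reached 5 FPM, provided that it passed the low-count filter at both times. Total counts per library ranged from 16483529 to 20818809 at 24 h and from 19936925 to 33916114 at 48 h. No value is given for Itgb1, the common partner of most α subunits here: all 657 genes of the tables that the annotation places beyond position 97876520 on chromosome 8 were listed at 0, 312 of them protein-coding, as were the 7075 genes of chromosomes 9, X, Y and the mitochondrion. Among smooth muscle markers, Acta2 (1149 to 4949 FPM in the 24 h controls) and Myl9 (289 to 1207 FPM) were abundant. In the same controls Smtn lay between 63.07 and 174.4 FPM and Myh11 between 2.68 and 90.9 FPM. Des (1.497 to 21.49 FPM) was low and Myocd (0 to 3.013 FPM) was near the floor. Tagln and Cnn1 were listed at 0 in all libraries, as Itgb1 was, and are not read as absent. Endothelial markers were also present, with a summed level of 1.78 to 7.20 FPM in mouse 1 and of 1551 to 2032 FPM in mouse 6, and the fibroblast markers Dcn and Pdgfra were present in every 24 h control (122 to 2669 FPM and 141 to 416 FPM). In these bulk samples, fewer cells of a type and less RNA per cell cannot be told apart. At 48 h the control library of replicate 4 in the EGF/AngII batch stood apart. Its deviations from the group means correlated with those of its own culture set at a mean r of -0.33 and with those of culture set 2 of the same batch at 0.85. Subunits with U46619 or EGF+U46619 at 48 h are therefore also described without it, and in the other comparisons at 48 h no subunit gained or lost a call when it was left out.

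The promoter sequences of Itga5 and Itgav, the subunits that rose most widely with U46619, and of Itga1, the subunit that fell, are shown so that the changes below can be set beside the DNA at the start of each gene. Of the 10 subunit genes, 8 had a promoter entry (none for Itga7 and Itgb3). The sequences are the 250 bases before the RefSeq transcription start (GRCm38.p6). Capitals mark GC boxes (GGGCGG or its complement CCGCCC), and none of the windows overlaps an annotated exon. Itga5 lies on chromosome 15 (103344286 to 103366763, minus strand, mm10) and its window covers 103366792 to 103367041. Itgav lies on chromosome 2 (83724397 to 83806916, plus strand), window 83724147 to 83724396. Itga1 lies on chromosome 13 (114953096 to 115101964, minus strand), window 115101965 to 115102214, and its neighbour Itga2 (114833081 to 114932100) lies next to it on the same strand.
Itga5: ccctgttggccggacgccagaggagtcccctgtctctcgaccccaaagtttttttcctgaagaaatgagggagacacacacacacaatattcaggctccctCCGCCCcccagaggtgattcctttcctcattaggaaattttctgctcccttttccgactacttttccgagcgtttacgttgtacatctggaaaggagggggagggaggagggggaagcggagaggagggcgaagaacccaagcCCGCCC
Itgav: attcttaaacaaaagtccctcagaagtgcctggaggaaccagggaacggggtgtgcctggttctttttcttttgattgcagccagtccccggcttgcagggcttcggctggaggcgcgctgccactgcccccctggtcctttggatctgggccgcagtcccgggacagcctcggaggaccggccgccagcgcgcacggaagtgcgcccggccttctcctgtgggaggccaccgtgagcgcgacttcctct
Itga1: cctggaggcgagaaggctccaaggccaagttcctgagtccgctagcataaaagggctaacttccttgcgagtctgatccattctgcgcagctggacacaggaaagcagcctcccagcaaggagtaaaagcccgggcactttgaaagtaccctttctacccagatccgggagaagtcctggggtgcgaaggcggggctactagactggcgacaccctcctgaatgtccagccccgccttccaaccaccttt
Besides the GC box, both strands were searched for the AP-1 motif TGANTCA, the TEAD motif CATTCC and the CArG box of serum response factor. None of these was found in the windows of Itga5, Itgav or Itga1. Itga5 held 2 GC boxes, which ended 144 bases and 1 base before the start, and Itgav and Itga1 held none. Over all 32851 promoters, 32.7% held a GC box, 12.6% the TEAD motif, 6.75% the AP-1 motif and 1.47% a CArG box in the same window. The GC content of the windows was 55.6% for Itga5, 64.4% for Itgav and 57.6% for Itga1, beside a median of 52.4% over all promoters.

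In control aVSMC the fibronectin receptor subunit Itga5 was the most abundant of the α subunits, and Itgb5 exceeded Itgb3. Per kb of merged exon, the 24 h control level was 160 ± 68.7 FPM per kb (SD, n = 6) for Itgb5, 49.5 ± 18.2 for Itga5, 12.1 ± 12.8 for Itga3, 11.3 ± 2.65 for Itgav, 4.50 ± 2.77 for Itgb3, 3.61 ± 2.04 for Itga1, 1.75 ± 0.890 for Itga7, 0.569 ± 0.47 for Itga2 and 0.122 ± 0.0697 for Itga4. The order of the means was the same at 48 h (n = 10). At both times the steps from Itgb5 to Itga5, from Itga5 to Itga3 and from Itgav to Itgb3 exceeded the SD of the within-library differences, whereas Itga3 and Itgav, Itgb3 and Itga1, Itga1 and Itga7, and Itga7 and Itga2 did not differ beyond that spread. Itga2 and Itga4 were apart beyond the SD at 48 h but not at 24 h. Itga5 made up 56.6% to 68.5% of the summed α subunit level per kb in the 24 h controls and 67.8% to 91.9% with U46619. The ratio of Itgb5 to Itgb3 per kb had a median of 39.4 in the 24 h controls (11.3 to 67.4) and of 33.0 with U46619 (12.1 to 77.2), and these ranges overlapped.

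**Figure D1:**
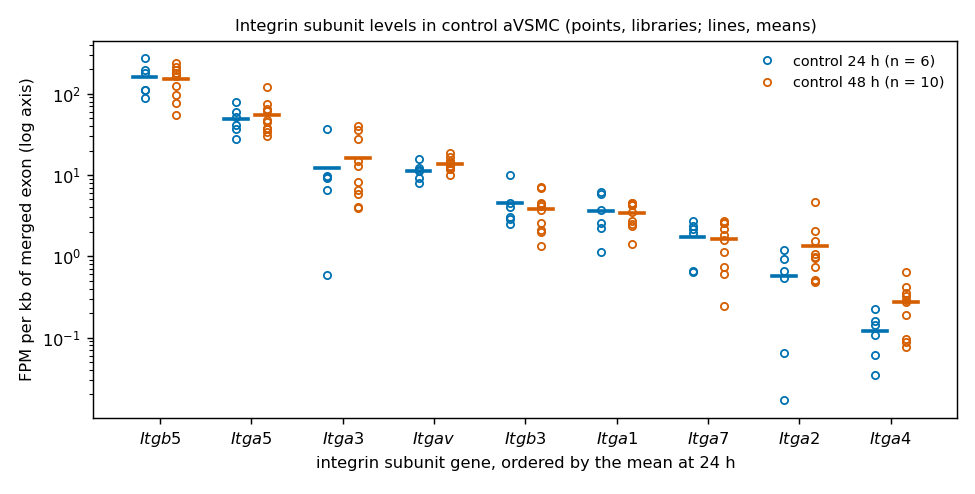
Levels of the 9 counted integrin subunits in control aVSMC, in FPM per kb of merged exon on a log axis (points, libraries at 24 h, n = 6, and 48 h, n = 10; lines, means). Itgb5 and Itga5 lead at both times, and Itga3 and Itga2 spread most between libraries at 24 h.

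The first question was which subunits each stimulus changed within 24 h. With U46619 alone, Itga5 and Itgav rose. Itga5 lay between 138 and 390.3 FPM in control (median 229.9) and between 389.7 and 2032 FPM with U46619 (median 930.4), so that the groups touched only at the lowest U46619 library, that of mouse 3, and it was higher in 6 of 6 mice. The log2-fold change was 1.83 (SE 0.35, FDR = 0.00020, edgeR). The rise was uneven between mice: relative to the own control it spanned 0.63 to 3.88 on the log2 scale, and mice 1, 2 and 5 reached 1282, 2032 and 1258 FPM while mice 3, 4 and 6 stayed at 389.7, 481 and 603 FPM. Itgav, the α subunit of the vitronectin and osteopontin receptors, rose from 86.2 to 168.2 FPM in control (median 122) to 147.99 to 274 FPM (median 236), by 0.83 (SE 0.17, FDR = 0.00043), also in 6 of 6 mice, with overlapping groups. These were 2 of the 9 subunits tested, and 13.5% of all genes tested were called higher in this comparison. The median log2-fold change was 0.25 over the 9 subunits and -0.06 over all genes. Itga4, the α4 subunit of the VCAM-1 receptor, passed both tests (1.29, SE 0.48, FDR = 0.036) but stayed under 5 FPM on average (4.84 ± 5.14 FPM, SD, n = 6), and its level was highest in mouse 2 (14.7 FPM, against 2.26 FPM in the own control).

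With EGF+U46619, Itga5, Itgav, Itga2 and Itga4 were called higher, 4 of 9 subunits beside 17% of all genes tested. Itga5 reached 234 to 1885 FPM (median 940.4), a change of 1.72 (SE 0.35, FDR = 0.00022), and overlapped the controls through mouse 3 only (234 FPM). Itgav reached 186.98 to 382 FPM (median 229), above every control library, a change of 1.04 (SE 0.17, FDR = 2.5e-05). Itga2, the α subunit of the second collagen receptor, lay between 0.120 and 8.63 FPM in control (median 4.27) and between 0.823 and 36.4 FPM with EGF+U46619 (median 7.87). It was higher in 5 of 6 mice (1.57, SE 0.52, FDR = 0.015), with large overlap, and rested on 2 counts in its lowest control library. Itga4 went from 1.70 ± 0.974 to 5.14 ± 5.48 FPM (SD, n = 6), higher in 4 of 6 mice (1.35, SE 0.48, FDR = 0.023). Mouse 2 held most of that mean with 15.7 FPM. The calls of Itga2 and Itga4 were not stable: Itga2 was not called without mouse 5, and Itga4 was not called without mouse 1, 2, 3 or 5 in turn.

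The triple incubation EGF+AngII+U46619 called 3 subunits higher and 1 lower, beside 18.1% and 16.2% of all genes. Itga5 (1.82, SE 0.35, FDR = 0.00010) and Itgav (1.04, SE 0.17, FDR = 1.8e-05) rose in 6 of 6 mice. Itga2 rose by 1.54 (SE 0.52, FDR = 0.016), also in 6 of 6 mice, but was not called without mouse 2 or mouse 5. Itga1, the α subunit of a collagen and laminin receptor, was the member that fell: its level was 21.2 to 116 FPM in control (median 57.9) and 1.81 to 66.3 FPM with the triple incubation (median 53.3), lower in 5 of 6 mice (-0.92, SE 0.36, FDR = 0.035). The groups overlapped widely, the lowest value came from mouse 3, and the call was lost without any of mice 2 to 6. With EGF+U46619 the change of Itga1 was -0.82 (SE 0.35, FDR = 0.062 by edgeR and 0.039 by DESeq2), and with U46619 alone it was -0.10 (SE 0.35), with 3 mice above and 3 below their controls.

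EGF alone called none of the 9 subunits at 24 h, where 0.0273% of all genes (4) were called in either direction. That small share was set by edgeR, with 5 genes under an FDR of 0.05, while DESeq2 had 425. The paper reports more genes regulated by EGF at this time. At an unadjusted p under 0.05, edgeR and DESeq2 each marked 2 of the 9 subunits, Itgav and Itgb3 by edgeR. Of all 14653 genes tested, edgeR marked 2593 in the same way. Itgav with EGF lay between 139.6 and 195 FPM (median 167.02) and was above the own control in 6 of 6 mice, a difference of 0.45 (SE 0.17, FDR = 0.16). Itgb3, the β subunit of the αvβ3 receptor, was higher in 5 of 6 mice (0.37, SE 0.18, FDR = 0.27). AngII called none, with 0% of all genes called and 0 subunits under 0.05 without adjustment by edgeR and by DESeq2. The 9 log2-fold changes with AngII lay between -0.26 and 0.28. EGF+AngII called none either, beside 3.11% of all genes. Itgav was above its control in 6 of 6 mice there too (0.52, SE 0.17, FDR = 0.067 by edgeR and 0.034 by DESeq2), and Itga7, the laminin-binding α7 subunit of muscle cells, was below it in 5 of 6 (-0.66, SE 0.28, FDR = 0.14).

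**Figure D2:**
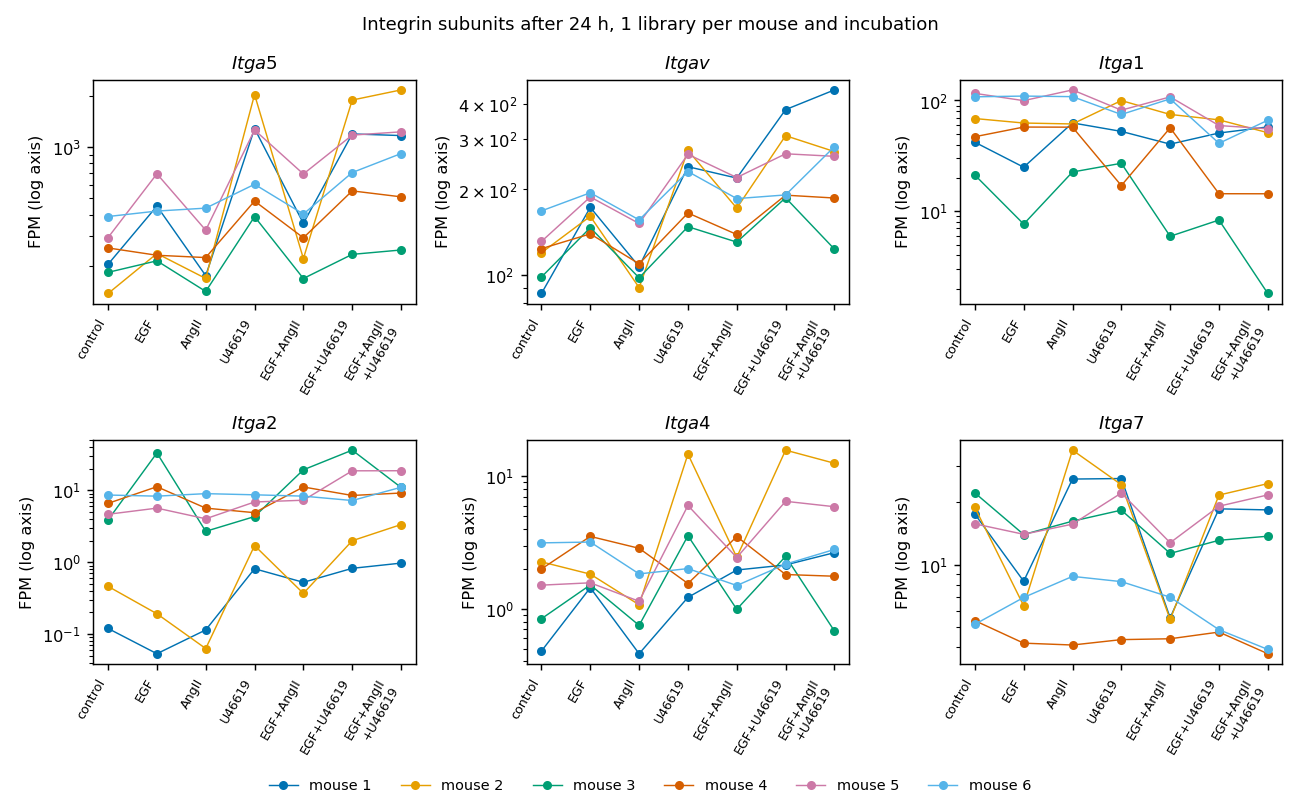
FPM (log axis) of 6 integrin subunits after 24 h, with 1 line per mouse across the 7 groups. Itga5 and Itgav lie above control in all 6 mice in each incubation with U46619, while Itga2, Itga4 and Itga1 differ between mice more than between incubations.

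Direct comparisons placed U46619 against EGF. At 24 h, Itga5 was higher with U46619 than with EGF (1.34, SE 0.34, FDR = 0.0080), in 6 of 6 mice, the 1 subunit called beside 6.14% of all genes called higher. Itga7 (0.76, SE 0.28, FDR = 0.062) and Itgav (0.38, SE 0.17, FDR = 0.14) were also higher in 6 of 6 mice without being called. Adding U46619 to EGF raised Itga5 (1.24, SE 0.34, FDR = 0.012) and Itgav (0.58, SE 0.17, FDR = 0.017), beside 6.97% of all genes, but leaving out mouse 4 removed both calls, leaving out mouse 1 that of Itga5, and leaving out mouse 2 or mouse 5 that of Itgav. Adding EGF to U46619 called none of the subunits and 0% of all genes; by unadjusted p, edgeR marked 0 and DESeq2 1 subunit. Itga1 was lower with EGF+U46619 than with U46619 in 6 of 6 mice (-0.71, SE 0.35) and Itga2 was higher in 5 of 6 (0.99, SE 0.52). The departure of EGF+U46619 from the sum of the single log2 effects was not called for a subunit or for a gene (0%), and no subunit had an unadjusted p under 0.05 in edgeR or DESeq2 (0 of 9). For Itga5 it was -0.59 (SE 0.47) and for Itgav -0.24 (SE 0.24).

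After 48 h with U46619, Itga1 and Itgav were called. Itga1 fell: the EGF/U46619 batch controls held 84.8, 26.3, 46.5, 44.3 and 78.6 FPM in culture sets 1 to 5, and the U46619 cultures 28.4, 7.55, 27.0, 22.2 and 44.7 FPM. It was lower in 5 of 5 culture sets, while the ranges of the groups overlapped because the sets start from different levels. Against all 10 controls (63.9 ± 20.7 FPM) the change was -1.29 (SE 0.22, FDR = 0.0012, edgeR). Itgav rose in 5 of 5 sets, from 134, 127, 108, 198 and 151.3 FPM to 265, 167.5, 205, 294 and 184.7 FPM (0.65, SE 0.13, FDR = 0.0043). Each was 1 of 9 subunits in its direction, beside 2.28% of all genes called higher and 1.42% called lower. Itga5 was also higher in 5 of 5 sets (504, 292, 565, 779 and 166.7 FPM, from 325, 224, 186.9, 590.0 and 148.8 FPM) but was not called (0.68, SE 0.24, FDR = 0.092). Itga7 was higher in 5 of 5 sets (30.8, 21.9, 25.9, 28.9 and 7.31 FPM, from 9.10, 14.8, 20.9, 17.6 and 4.88 FPM) with a change of 0.72 (SE 0.42, FDR = 0.32). Itga4 passed both tests in the other direction than at 24 h (-0.97, SE 0.29, FDR = 0.046) but lay under 5 FPM (3.85 ± 2.45 FPM in control, n = 10, and 2.02 ± 1.40 FPM with U46619, n = 5), and without the set-apart control library its FDR was 0.074. The Itga4 level was 2.70 ± 1.53 FPM in the EGF/U46619 batch controls and 5.00 ± 2.80 FPM in the EGF/AngII controls (SD, n = 5 each). Against the own control its mean log2 difference with U46619 was -0.38 ± 0.28 (SD, n = 5). Without the set-apart control library Itga5 changed by 0.75 (SE 0.24, FDR = 0.068) and Itga7 by 0.62 (SE 0.42, FDR = 0.43). The most abundant subunit, Itgb5, changed by 0.22 (SE 0.29) with U46619 at 48 h and by -0.08 (SE 0.19) at 24 h, and was called in no comparison.

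With EGF+U46619 at 48 h, Itga1 held 29.5, 6.22, 20.9, 17.6 and 17.5 FPM, the lowest mean of the 6 groups at 48 h (18.3 ± 8.35 FPM), and fell by 1.72 on the log2 scale (SE 0.22, FDR = 2.2e-05). Itgav reached 278, 181.7, 239, 261 and 157.96 FPM (0.65, SE 0.13, FDR = 0.0024). Itga1 was lower and Itgav higher than in the own control in 5 of 5 sets, and 3.53% and 2.77% of all genes were called higher and lower. Itgb3 held 69.9, 40.7, 28.9, 46.9 and 11.5 FPM, above the own control in 5 of 5 sets (40.3, 25.6, 11.8, 26.6 and 7.78 FPM), without a call in the fit over both batches (0.64, SE 0.28, FDR = 0.15). Without the control library that stood apart, the changes were -1.30 (Itga1) and 0.67 (Itgav) for U46619 and -1.74 (Itga1) and 0.67 (Itgav) for EGF+U46619, all still called, and Itgb3 with EGF+U46619 was called as well (0.83, SE 0.25, FDR = 0.037). When the fit took culture sets instead of mice as the block, EGF+U46619 called 4 subunits (Itga1, Itga5, Itgav and Itgb3) in place of 2. U46619 alone also gained Itga5 with this block. The share of all genes called in that fit is not given, so that the gain is not read as particular to the subunits.

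Within the EGF/U46619 batch alone, where each culture is compared with the control of its own set, more subunits were called. By the labels, sets 1 and 4 of this batch share a mouse, so that its culture sets are not all independent animals. For U46619 these were Itga1 (-1.16, SE 0.18, FDR = 0.00023), Itga7 (0.78, SE 0.21, FDR = 0.011), Itga5 (0.63, SE 0.17, FDR = 0.011), Itgav (0.62, SE 0.12, FDR = 0.0012), Itgb3 (0.48, SE 0.12, FDR = 0.010) and Itga3 (0.34, SE 0.09, FDR = 0.013), 5 higher and 1 lower, beside 10.4% and 8.9% of all genes. For EGF+U46619 they were Itga1 (-1.64, SE 0.18, FDR = 7.2e-06), Itgb3 (0.83, SE 0.12, FDR = 0.00011), Itga2 (0.76, SE 0.16, FDR = 0.0022), Itgav (0.64, SE 0.12, FDR = 0.00071), Itga5 (0.63, SE 0.17, FDR = 0.0082) and Itga3 (0.37, SE 0.09, FDR = 0.0053), again 5 higher and 1 lower, beside 12.6% and 11% of all genes. Itga3 reversed between the fits: over both batches its change with U46619 was -0.48 (SE 0.52), and without the set-apart control library it was 0.01 (SE 0.45). The EGF/AngII controls lay at 143 ± 79.9 FPM and those of the EGF/U46619 batch at 40.5 ± 26.1 FPM (SD, n = 5 each). Within its own batch Itga3 was higher with U46619 in 5 of 5 sets.

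EGF at 48 h called none of the subunits and 0% of all genes, with 0 subunits under an unadjusted p of 0.05 by edgeR or DESeq2. The same held for AngII (0%) and EGF+AngII (0%). The changes lay between -0.37 and 0.11 for EGF, -0.30 and 0.25 for AngII, and -0.17 and 0.27 for EGF+AngII. In direct comparison at 48 h, U46619 was above EGF for Itgav (0.62, SE 0.13, FDR = 0.0066; 1.75% of all genes higher) and below it for Itga1 (-1.09, SE 0.21, FDR = 0.0048; 1.2% lower). U46619 added to EGF gave 0.62 for Itgav (SE 0.13, FDR = 0.0047) and -1.53 for Itga1 (SE 0.22, FDR = 0.00014), beside 2.41% and 2.02% of all genes. These direct calls were lost when the fit held only the groups compared. EGF added to U46619, and the departure from additivity, called 0 subunits and 0% of all genes, with 0 subunits under 0.05 unadjusted in both tools.

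**Figure D3:**
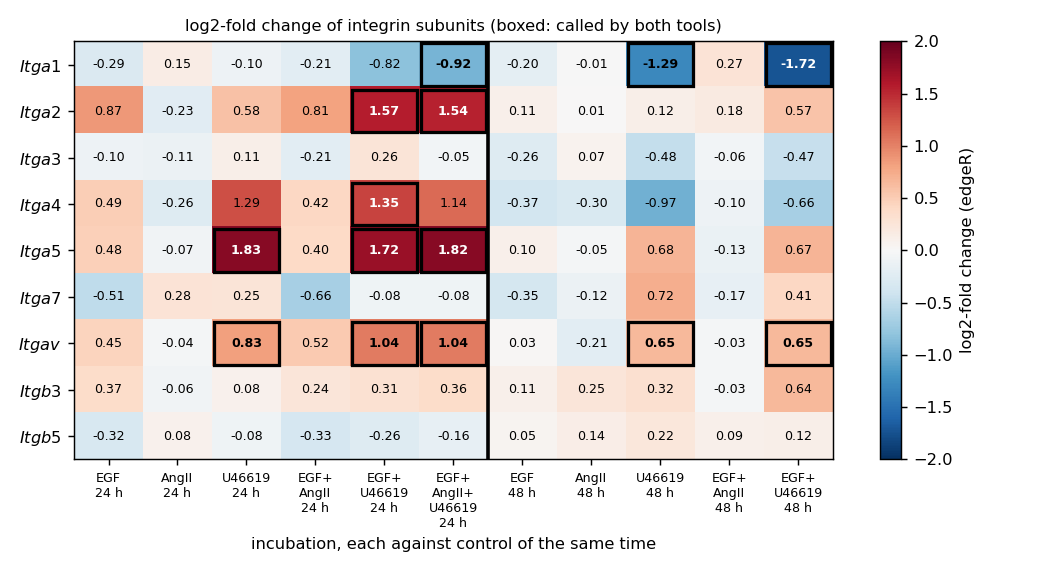
log2-fold changes (edgeR) of the 9 counted integrin subunits for each incubation against the control of the same time. Boxes mark values called by both tools, which occur only in columns that contain U46619: Itgav in 5 of them, Itga5 in the 3 at 24 h, Itga1 in 3, Itga2 in 2 and Itga4 in 1.

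**Figure D4:**
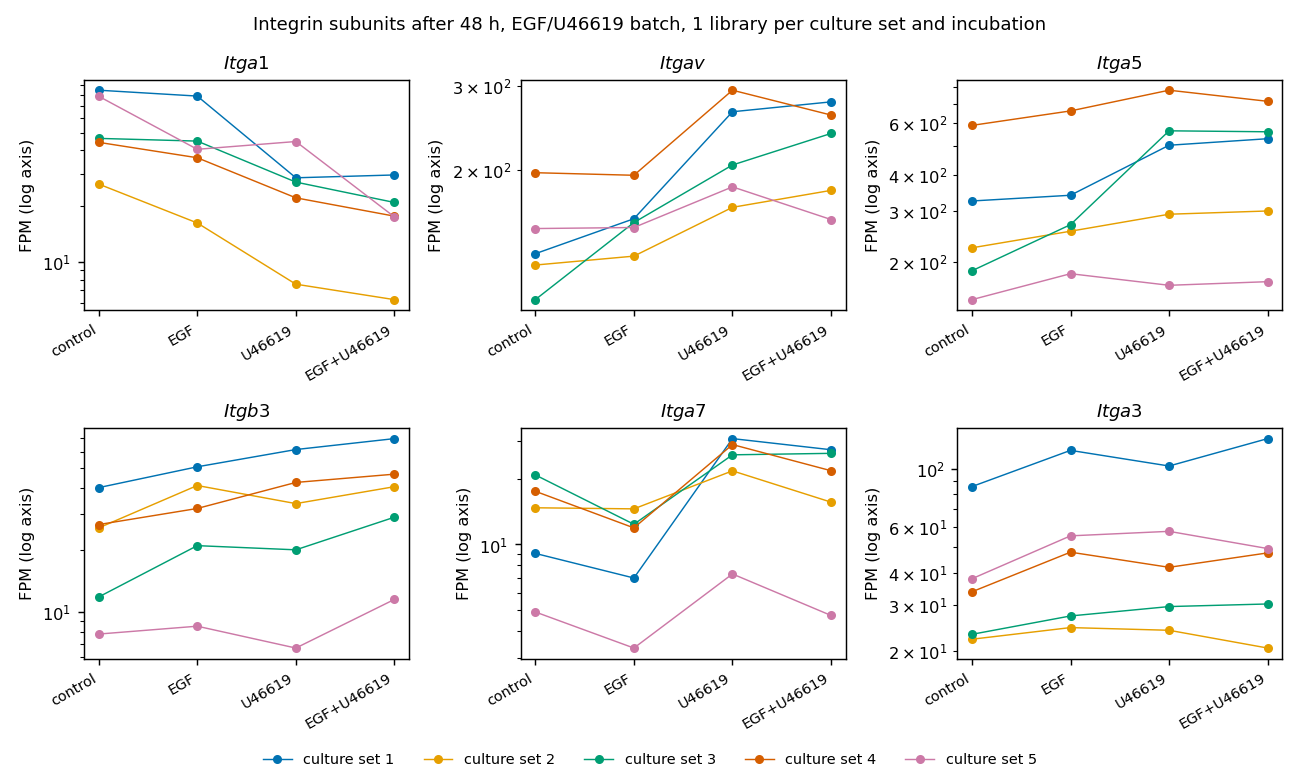
FPM (log axis) of 6 integrin subunits in the EGF/U46619 batch after 48 h, with 1 line per culture set. Itga1 falls and Itgav, Itga5, Itga7 and Itga3 rise from control to U46619 in all 5 sets, while the sets keep different levels.

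The responses at the 2 times were set against each other by comparing the differences to the own control between the 6 mice at 24 h and the culture sets at 48 h (limma). No subunit was called for EGF, U46619 or EGF+U46619, where 0%, 0.241% and 0% of all genes were. At an unadjusted p under 0.05, 3 subunits were marked for EGF (Itga4, Itga5 and Itgav), 2 for U46619 (Itga1 and Itga4) and 2 for EGF+U46619 (Itga4 and Itgb3). Of all 14528 genes compared, 2791, 3250 and 2312 were marked in the same way for EGF, U46619 and EGF+U46619. The marked subunits are therefore not read as particular to the set. The mean response of Itga5 to U46619 was 1.87 ± 1.25 on the log2 scale at 24 h (SD, n = 6) and 0.64 ± 0.56 at 48 h (n = 5), an FDR of 0.24 for the difference. That of Itga1 was -0.21 ± 0.75 and -1.17 ± 0.45 (FDR = 0.14). A difference between the times was thus not shown for these subunits. The 2 times came from different mice and were sequenced apart, so that time and sequencing batch cannot be told apart. Culture sets that share a mouse by the labels entered this test as separate values.

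Much of the variation of the subunits lay between mice rather than between incubations. At 24 h, 96.7% of the sum of squares of log2(FPM + 0.5) of the laminin receptor subunit Itga3 lay between mice and 0.786% between treatments, beside medians of 49.8% and 15.0% over all genes tested. For Itgb3 the shares were 85.2% and 3.51%, and for Itgb5 65.7% and 7.59%. Itga5 and Itgav were the members with the larger share between treatments (53.3% and 57.5%, against 24.7% and 20.8% between mice). In the EGF/U46619 batch at 48 h only Itgav kept the larger share between treatments (50.6%, against 33.2% between culture sets), and for Itga5 12.6% lay between treatments and 78.0% between sets. Itga3 was 1.798 to 5.93 FPM in the 7 libraries of mouse 2 and 172.8 to 324 FPM in those of mouse 6, and the other mice lay between 19.7 and 69.3 FPM. Itgb3 was 58.1 to 109 FPM in mouse 6 and 8.90 to 41.6 FPM in the others. Summed endothelial markers were 2.099 to 6.11 FPM in mouse 2 and 1551 to 2032 FPM in mouse 6, while mouse 1, with 1.78 to 7.20 FPM, held 19.7 to 47.8 FPM of Itga3. At 48 h the highest Itga3 levels stood in culture sets 1 and 2 of the EGF/AngII batch, with medians of 221 and 207 FPM, where the summed endothelial markers had medians of 2137 and 1959 FPM. Among the EGF/U46619 sets, set 1 held both the highest Itga3 (median 110.4 FPM) and the highest endothelial sum (median 881 FPM). Itga3 was not low in all sets with few endothelial transcripts: set 6 of the EGF/AngII batch held 74.2 FPM at a sum of 18.1 FPM (medians). Cdh5 was listed at 0 in all libraries, as Itgb1 was, and is not read as absent. The part of endothelial cells in the Itga3 and Itgb3 levels was not tested. The set-apart control library held 204 FPM of Itga3 where the other libraries of its set held 24.7, 29.2 and 25.4 FPM, and its endothelial sum was 2046 FPM.

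**Figure D5:**
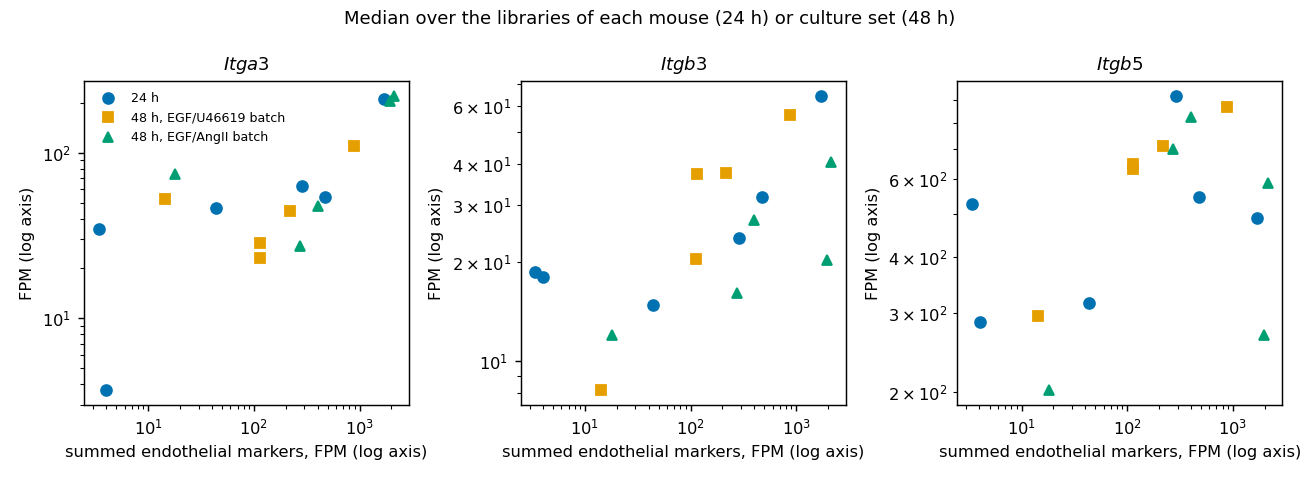
Median FPM of Itga3, Itgb3 and Itgb5 against the median summed FPM of the endothelial markers (both log axes), 1 point per mouse at 24 h or culture set at 48 h. The points with the highest endothelial sums hold the highest Itga3, while the highest Itgb5 stands at middle and high sums alike.

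The 16 other integrin subunit genes of the mouse were examined as well. Itga9 and Itga11, on chromosome 9, were listed at 0. Of the 10 others tested at 24 h, Itga2b, Itgb8 and Itgb4 were called lower with U46619 (-1.46, SE 0.35; -1.30, SE 0.33; -0.96, SE 0.33), beside 14.1% of all genes called lower. With EGF+U46619 Itga2b (-1.39, SE 0.35) and Itga8 (-1.07, SE 0.36) were lower and Itga6 (1.00, SE 0.39) higher, 2 and 1 of 10, beside 16.1% and 17% of all genes, so that these counts lay near the background. Itga2b, known as the platelet fibrinogen receptor subunit, fell from 18.9 ± 16.7 to 6.48 ± 5.14 FPM (SD, n = 6) with U46619, while the platelet markers Pf4, Gp1bb and Ppbp lay at or near 0 in the controls. Itga8, an RGD-binding α subunit of smooth muscle cells, held 31.6 ± 21.2 FPM in control and 17.6 ± 14.7 FPM with EGF+U46619. Of the rest, Itga10, Itgae, Itgal, Itgb2 and Itgb7 were tested without a call for U46619 and EGF+U46619 at 24 h, and Itgad, Itgam, Itgax and Itgb6 were under the low-count filter at 24 h. At 48 h none of the 16 was called in these comparisons. Itgal at 24 h (-2.22, SE 0.78, FDR = 0.023) and Itgb7 at 48 h (2.05, SE 0.45, FDR = 0.0043) were under the FDR threshold in edgeR with EGF+U46619, at control means of 1.33 and 0.280 FPM, and were not called.

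Ligands moved in both directions, and their counts are to be read beside the 13.5% of all genes called higher and the 14.1% called lower with U46619 at 24 h. At 48 h these shares were 2.28% and 1.42% with U46619, and 3.53% and 2.77% with EGF+U46619. Of 14 RGD and other glycoprotein ligands, 6 were called higher and 0 lower with U46619 at 24 h. These included Npnt, the ligand of α8β1 (3.20, SE 0.56), Ccn2, a matricellular protein that binds αv and α5 integrins (2.74, SE 0.49), and Spp1, which encodes osteopontin (1.93, SE 0.69). With EGF+U46619 at 48 h Spp1 was called higher (3.65, SE 0.48), where it averaged 781 ± 391 FPM (n = 5) beside 64.1 ± 51.4 FPM in control (n = 10), and Thbs1, encoding thrombospondin 1, rose by 1.08 (SE 0.19). Of 10 collagen genes, 3 were higher and 4 lower with U46619 at 24 h, led by Col6a1 (-1.47, SE 0.35), Col6a2 (-1.44, SE 0.33) and Col3a1 (-1.44, SE 0.29), and 1, Col3a1, was lower at 48 h (-1.54, SE 0.30). Of 5 laminin chain genes tested, 1, Lama2, was lower at 24 h (-1.16, SE 0.31), a share near that of all genes. Fibroblast markers moved with these: 5 of 6 were called lower with U46619 at 24 h, and their summed level was 595 to 3502 FPM in control and 237 to 2233 FPM with U46619. The part of fibroblasts in these changes was not tested. Of the endothelial markers, 0 of 5 tested were called with U46619, EGF+U46619 or the triple incubation at 24 h, nor with U46619 or EGF+U46619 at 48 h, where their median log2-fold changes were -1.67 and -1.62 over both batches. Their summed level in the 48 h controls of both batches spanned 17.5 to 2073 FPM, while U46619 cultures stood in the EGF/U46619 batch only. Set 1 of that batch held 799 to 958 FPM over all its libraries. Sets 2 to 5 held 109 to 128, 95.5 to 132, 206 to 284 and 8.37 to 19.8 FPM. Of the leukocyte markers, 3 were tested at 24 h, where Lyz2 was lower (-1.31, SE 0.23) and Csf1r higher (1.08, SE 0.23) with U46619, while Ptprc and Adgre1 were at 0 in the 24 h controls.

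Among intracellular partners, beside the same 13.5% and 14.1% of all genes, 6 of 19 activators and adhesion linkers tested were higher and 2 lower with U46619 at 24 h, led by the actin crosslinkers Actn1 (1.29, SE 0.21) and Actn4 (0.85, SE 0.21) and by kindlin-2, encoded by Fermt2 (1.13, SE 0.25), which activates integrins together with talin. Of 10 adhesion signalling genes, 4 were higher and 0 lower, with Fyn (0.92, SE 0.17), Crk (0.63, SE 0.17) and Ptk2, the gene of focal adhesion kinase (0.51, SE 0.10), at the top. Of 9 inhibitors and trafficking genes, 3 were higher, among them Dok1 (0.97, SE 0.25) and Flnc (0.49, SE 0.16). Of 8 membrane partners, 2 were higher and 3 lower: Plaur, the urokinase receptor that binds integrins laterally, rose by 2.95 (SE 0.41), Slc3a2 rose by 0.51 (SE 0.14), and the tetraspanin Cd82 fell (-0.60, SE 0.13). At 48 h, Plaur (1.39, SE 0.24), Flnc (0.71, SE 0.17), Actn4 (0.45, SE 0.11) and Actn1 (0.42, SE 0.12) were still called higher with U46619, and Cav1, which encodes caveolin-1, was lower (-0.94, SE 0.28). With EGF+U46619 at 48 h, the genes called also included Npnt (1.08, SE 0.32), Dab2 (0.68, SE 0.18) and Parva (-0.31, SE 0.09). Of all genes at 48 h, 2.28% were called higher and 1.42% lower with U46619, and 3.53% and 2.77% with EGF+U46619. Summed smooth muscle markers rose alongside, from 1515 to 6370 FPM in control to 4901 to 16863 FPM with U46619 at 24 h, mainly through Acta2 (2.05 on the log2 scale), and 2 of 6 tested markers were called. At 48 h the sum spanned 655 to 9089 FPM in control (n = 10) and 1373 to 6231 FPM with U46619 (n = 5), and these ranges overlapped.

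The genes whose pattern was most like that of each subunit were sought over the 42 libraries at 24 h after removing the mouse means, among 10148 genes. These are descriptions, since the libraries share mice and treatments. Itgav was most like Dis3 (Pearson's r = 0.97) and Azin1 (0.97), with r = 0.74 and 0.90 over the 40 libraries at 48 h after removing culture set means. Itga5 was most like Mthfd1 (0.97, and 0.52 at 48 h) and Tnfaip1 (0.97, and 0.85 at 48 h). Itga1 was most like Man1a (0.87, and 0.85 at 48 h) and Septin11 (0.85, and 0.54), and Itgb5 was most like Fhl2 (0.90, and 0.80) and Ccn5 (0.86, and 0.88). Itga2 was most like Tnfrsf22 (0.87, and 0.62) and Enpp1 (0.85, and 0.31). Itga3 was most like X2900026A02Rik (0.80, and 0.61) and Lasp1 (0.79, and 0.04), and Itgb3 most like Mgat5 (0.79, and 0.74) and Frmd6 (0.78, and 0.08). Itga7 was most like Rasa4 (0.83, and 0.51) and the laminin gene Lama5 (0.81, and 0.41). The likeness of Itga4 with Ssx2ip (0.88) and Ccnyl1 (0.86) was not found at 48 h (-0.10 and -0.46). Among the subunits themselves, Itga5 and Itgav moved together at both times (0.86 and 0.71). Itga1 and Itgav had r = -0.20 at 24 h and -0.60 at 48 h.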

How the data were processed

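RNA of 82 aVSMC cultures was sequenced as paired reads, and per the methods alignment used HISAT2 2.1.0 with mm10 and counting used featureCounts over exons, multi-mapping reads included. The values deposited by the authors are whole-number counts per gene and library. From these, FPM were computed with TMM library sizes, and edgeR 4.0.16 (quasi-likelihood test) and DESeq2 1.42.0 (Wald test) were fitted at each time to all groups with treatment and mouse as terms. The fits held the genes passing edgeR's low-count filter at that time, 14653 at 24 h and 15796 at 48 h. The shares of all genes called by both tools refer to these numbers. A call required an FDR under 0.05 in both tools, a mean of 5 FPM in a compared group and passing the filter at both times (14528 genes). Responses at 24 h and 48 h were compared with limma 3.58.1 on differences of log2(FPM + 0.5). The scripts were tested on simulated data.

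Depth was 16483529 to 20818809 counts at 24 h and 19936925 to 33916114 at 48 h. All 10 subunits are described, and from each gene list up to 3 called genes with the largest change were named per comparison, all other integrins being listed. An item that this rule names is not reported here. For each subunit, the 2 genes with the highest correlation at 24 h were named. Members and lists were chosen with earlier results of these data known. The labels give the mouse of each library, which pairs the groups, and same-mouse libraries at 24 h deviated together in 126 of 126 pairs (r over 0.1), those of a culture set at 48 h in 57 of 60. At 48 h culture sets that share a mouse are not independent animals. Genes with overlapping or duplicated sequence may share counts. Alternatives were other scaling, filters, tools and blocks, each batch alone, and each mouse or culture set left out. The library set apart at 48 h was left out as an alternative chosen after seeing the data.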

Additional observations from a re-analysis of the deposited data

Results flagged for a closer look

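Of 117 groups of 5 to 10 libraries, 22 held a highest library far from the rest by Dixon's criterion, which chance alone meets in about 1 of 20 groups. Libraries of one mouse are not independent, so that these do not count as separate events. Mouse 6 stood out for Itga3 in all 7 groups at 24 h, with 212 FPM in control, 215 with EGF, 204 with AngII, 172.8 with U46619, 221 with EGF+AngII, 324 with EGF+U46619 and 183.7 with the triple incubation. The same mouse stood out for Itgb3 in 6 groups, with 58.7 FPM in control, 64.0 with EGF, 58.1 with AngII, 76.3 with U46619, 64.4 with EGF+AngII and 109 with the triple incubation. Mouse 6 also had the highest summed endothelial markers (1551 to 2032 FPM), and their part in these levels was not tested.

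Itga4 in mouse 2 was far above the other mice with U46619 (14.7 FPM) and with EGF+U46619 (15.7 FPM). With EGF at 24 h, Itga2 was 33.2 FPM in mouse 3 and Itgb5 was 962 FPM in mouse 5. At 48 h, Itga5 in culture set 4 of the EGF/U46619 batch was 590.0 FPM in control and 662 FPM with EGF. Itga2 was 33.0 FPM in the control of set 6 of the EGF/AngII batch and 19.1 FPM with EGF+U46619 in set 5 of the EGF/U46619 batch. Itga3 was 131 FPM with EGF+U46619 in set 1 of that batch.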

How the results depend on the processing

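Itga5 and Itgav kept their calls at 24 h against control for U46619, EGF+U46619 and the triple incubation under all 13 alternatives, as did Itga1 at 48 h with EGF+U46619 under all 20. Of 2799 values of single subunits under an alternative, 2726 kept their side of the threshold (changes of sign without a call in either fit included), 36 lost a call, 35 gained one and 2 reversed. The reversals were those of Itga3 at 48 h in the EGF/U46619 batch alone, 0.34 with U46619 and 0.37 with EGF+U46619.

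Without the replicate block, the number of subunits called at 24 h was 2 for EGF+U46619 and 2 for the triple incubation (4 each with it), and 0 for EGF+U46619 and 0 for U46619 against EGF. At 48 h it was 0 for U46619 and 1 for EGF+U46619 against control, and 1 for EGF+U46619 and 0 for U46619 against EGF. With the culture set as replicate block it was 4 for EGF+U46619 against control, 5 for EGF+U46619 against EGF and 4 for U46619 against EGF. U46619 against control gained Itga5 with this block. Shares of all genes are not given for the fits over both batches with another block or none, so that these counts are not read as particular to the subunits. In the EGF/U46619 batch alone with this block it was 6 for U46619 and 6 for EGF+U46619 against control, and 4 for EGF+U46619 against EGF. With only the groups compared in the fit, both comparisons against EGF at 48 h gave 0. DESeq2 alone gave 1 for EGF+AngII and 2 for U46619 against EGF at 24 h. The cause of these shifts was not tested.

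Leaving out 1 mouse at 24 h gave 0 to 1 calls for EGF+AngII (1, Itgav, without mouse 6), 2 to 4 for EGF+U46619 (2 without mouse 5), 2 to 4 for the triple incubation (2 without mouse 2 or 5), 0 to 2 for EGF+U46619 against EGF (0 without mouse 4, 1 without mouse 1, 2 or 5) and 1 to 2 for U46619 against EGF (2 without mouse 6). Leaving out 1 culture set at 48 h gave 2 to 4 for EGF+U46619 against control, with 4 without set 4 of the EGF/AngII batch or set 5 of the EGF/U46619 batch. Depth limits Itga2 and Itga4, whose lowest 24 h control libraries held 2 and 8 counts.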
